A study of Mus musculus with 30 samples.

Results

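The SLAM and CD300 surface receptors described here are 10 mouse genes: Slamf7, Slamf8, Slamf9, Cd48, Cd84 and Ly9 of the SLAM family, and Cd300lf, Cd300a, Cd300lb and Cd300ld of the CD300 family. They were found by gene symbol among the 43629 gene IDs counted in each of 30 libraries, and all 10 were present. The set was chosen by measured values, because Slamf7 and Cd300lf were strongly lower in cells with Etv1 shRNA than in cells with control shRNA. The difference between these hairpins is therefore given for the 10 receptors as a description, with no test, and the tests concern what IL-4, prostaglandin E2 (PGE2) and valinomycin did.

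All libraries came from C57BL/6 bone marrow derived macrophages, grown from bone marrow with CSF-1 at 20 ng/mL and used on day 7 of culture, and CSF-1 was also present during stimulation. The groups with a short hairpin RNA (shRNA) had received lentiviral particles carrying either Etv1 shRNA or control shRNA, and each was given IL-4 with PGE2, IL-4 alone, or no stimulus. Wild type cells were given IL-4 with PGE2, IL-4 with valinomycin, IL-4 alone, or no stimulus. The dose of IL-4 was 20 ng/mL, that of valinomycin 10 nM and that of PGE2 10 µM, and each of the 10 groups had 3 libraries. Etv1 is a transcription factor of the ETS family. IL-4 is the cytokine of alternative macrophage activation, and PGE2 signals in macrophages largely through cyclic AMP. Valinomycin carries potassium across membranes and so reduces the potential over the inner mitochondrial membrane. The labels do not give the number or sequence of the hairpins, the stimulation time, or the origin of the replicates. The p-values therefore cover the spread between these libraries only, and that spread may be technical. The hairpin experiment has no group with valinomycin, and its wild type counterpart was fitted apart, so levels are tested only within an experiment. Where levels of both experiments are set side by side, no test is made.

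SLAM receptors are immunoglobulin-type proteins on blood cells. Most bind a copy of themselves on a neighbouring cell, while Cd48 is a lipid-anchored ligand of Cd244. The longer members carry tyrosine motifs in their tails that recruit the adaptors SAP (Sh2d1a) and EAT-2 (Sh2d1b1), whereas Slamf8 and Slamf9 have short tails without those motifs. CD300 receptors bind membrane lipids such as phosphatidylserine and come in opposing pairs: Cd300lf and Cd300a carry inhibitory tyrosine motifs that recruit phosphatases, while Cd300lb and Cd300ld signal through adaptors with activating motifs (Tyrobp and Fcer1g). In macrophages both families are known for tuning phagocytosis and inflammatory signalling.

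The 6 SLAM genes lie on chromosome 1 and the 4 CD300 genes on chromosome 11 of the GRCm38 genome, in the GENCODE M21 annotation. The chromosome 1 group runs from Ly9 (chr1:171588624-171607410, minus strand) through Slamf7 (chr1:171632403-171653035, minus), Cd48 (chr1:171682009-171705258, plus), Cd84 (chr1:171839697-171890718, plus) and Slamf9 (chr1:172475358-172478575, plus) to Slamf8 (chr1:172581758-172590568, minus). The chromosome 11 group runs from Cd300a (chr11:114890041-114904654, plus) through Cd300lb (chr11:114922781-114934386, minus) and Cd300ld (chr11:114982274-114989922, minus) to Cd300lf (chr11:115116214-115133992, minus). The counts cover the exons of each gene. The strand setting of the counting is not given in the sources used here, and Cd244a overlaps Ly9 on the opposite strand, with 7875 reads against 82095 for Ly9 over the 30 libraries. Rab37 overlaps Cd300lf in the same way, with 283 reads against 15464. Reads of Cd300ld may be shared with its close copies Cd300ld2 to Cd300ld5 and are uncertain to that extent.

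The libraries held 6924973 to 30473040 counted reads in the hairpin experiment and 10514496 to 13414293 in the wild type experiment. Values are CPM, the reads of a gene scaled to a common library size,, and log2 fold changes are given ± SE and CPM means ± SD, with 3 libraries a group. Etv1 itself, the target of the hairpin, had 4.84, 2.51 and 2.97 CPM in unstimulated Etv1 shRNA libraries, against 10.9, 10.3 and 10.5 CPM in control shRNA libraries. With IL-4 it had 6, 4.97 and 5.02 CPM in Etv1 shRNA libraries, against 15.3, 11.5 and 14.9 CPM in control shRNA libraries, and with IL-4 and PGE2 9.08, 7.72 and 9.86 CPM, against 29.1, 21.8 and 33.1 CPM. Every Etv1 shRNA library was below every control shRNA library of its condition, with log2 fold changes of -1.69 ± 0.20, -1.39 ± 0.19 and -1.67 ± 0.16 (edgeR adjusted p = 1.16e-06, 4.41e-06 and 5.4e-08). Every Etv1 shRNA library still held Etv1 reads. Wild type cells had 30.6, 28.9 and 30.1 CPM with IL-4 and PGE2, 12, 13.2 and 15.2 CPM with IL-4 and valinomycin, and 14.3, 12.7 and 13.7 CPM with IL-4 alone. Etv1 therefore rose with PGE2 in wild type cells (log2 fold change 1.14 ± 0.09, edgeR adjusted p = 1.04e-10), while its change with valinomycin was -0.01 ± 0.10 (adjusted p = 0.948).

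The cells carried the marks of macrophages. The 8 macrophage markers (Adgre1, Csf1r, Cd68, Itgam, Mertk, Fcgr1, Lyz2 and Cd14) were all detected and summed to 8902 to 21470 CPM in the hairpin experiment and 14360 to 19080 CPM in the wild type experiment, with Lyz2 alone at 3877 to 14480 and 6965 to 11660 CPM. Neutrophil markers summed to 0 to 2.46 CPM in the hairpin experiment and 212 to 342 CPM in wild type cells. The T cell, B cell, natural killer cell, dendritic cell, plasmacytoid dendritic cell and mast cell lists summed to at most 7.13 CPM in any library, the highest being the B cell list in wild type cells. These are bulk libraries, so fewer cells of a type and less RNA per cell cannot be told apart.

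Per kilobase of exon, the receptors covered a wide range of abundance in wild type cells given IL-4. The activating receptors Cd300ld and Cd300lb were the most abundant, at 255 ± 4.46 and 214 ± 10.8 CPM per kb. Cd48 and Cd84 followed at 135 ± 6.03 and 135 ± 2.48 CPM per kb and did not differ beyond their spread. Ly9 had 83.1 ± 2.18, Cd300a 44.3 ± 2.19, Slamf7 25.4 ± 2.08, Slamf9 16.6 ± 0.904 and Slamf8 9.56 ± 0.676 CPM per kb. The inhibitory receptor Cd300lf was lowest, at 0.810 ± 0.130 CPM per kb. In control shRNA cells given IL-4 the order differed. Cd300lb (263 ± 17.3 CPM per kb) stood above Cd300ld (174 ± 15.7), and Ly9 (122 ± 17.8) above Cd84 (75.4 ± 10.7). At the lower end Slamf7 had 19.96 ± 5.97, Slamf9 18.03 ± 0.900 and Cd300lf 16.6 ± 3.60 CPM per kb. The spread of Cd300lf covered the means of Slamf7 and Slamf9. Slamf8 was lowest at 0.872 ± 0.106 CPM per kb. The values of the experiments are set side by side here, with no test between them. In Etv1 shRNA cells given IL-4 the order was Cd300lb (116 ± 11.03 CPM per kb), Cd48, Ly9, Cd300ld, Cd300a, Cd84, Slamf9, Cd300lf (1.61 ± 0.411), Slamf7 (0.911 ± 0.277) and Slamf8 (0.295 ± 0.147).

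IL-4 divided the receptors in wild type cells. Of the 4 CD300 receptors of the set, the activating Cd300lb and Cd300ld rose, and the inhibitory Cd300a and Cd300lf fell. Cd300e, another activating CD300 receptor outside the set, fell (-2.20 ± 0.23, edgeR adjusted p = 2.8e-08), so the split by signalling type holds for these 4 genes and not for the family. Cd300lb had 642, 587 and 642 CPM with IL-4, against 281, 272 and 278 CPM without stimulus, and Cd300ld had 674, 664 and 687 CPM with IL-4, against 364, 363 and 353 CPM. These are rises of 1.17 ± 0.05 and 0.91 ± 0.04 on the log2 scale (edgeR adjusted p = 5.05e-16 and 1.03e-14). Cd300a had 198, 216 and 216 CPM with IL-4, against 288, 287 and 292 CPM without stimulus, and Cd300lf had 3.75, 4.94 and 3.83 CPM, against 6.39, 7.07 and 6.75 CPM. The libraries of the compared groups did not overlap for any of these 4 genes, and the inhibitory receptors changed by -0.46 ± 0.05 (adjusted p = 4.18e-08) and -0.69 ± 0.15 (adjusted p = 0.00066).

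Among the SLAM receptors, Ly9 rose with IL-4 in wild type cells, by 0.36 ± 0.04 (edgeR adjusted p = 3.66e-07), and so did Slamf8, by 0.32 ± 0.11 (adjusted p = 0.017). Slamf9 fell, with a log2 fold change of -0.81 ± 0.08 (adjusted p = 4.67e-09), and Slamf7 fell by less, with -0.20 ± 0.07 (adjusted p = 0.0238). Cd48 and Cd84 had log2 fold changes of -0.05 ± 0.05 and 0.04 ± 0.04 and did not pass the test. In all, 4 of the 10 receptors rose and 4 fell, where 24% of the 12824 genes tested in wild type cells rose and 22.4% fell at an adjusted p under 0.05. The Slamf7 call was lost without unstimulated replicate 1 (adjusted p = 0.104), IL-4 replicate 1 (0.0986) or IL-4 replicate 3 (0.108), within a range of 0.000352 to 0.108 over 11 alternatives. The Slamf8 call was lost without unstimulated replicate 3 (adjusted p = 0.118) or IL-4 replicate 2 (0.0777), within a range of 0.00149 to 0.118. The macrophage markers summed to 15700 to 17070 CPM with IL-4 and 18470 to 19080 CPM without stimulus, with 2 of 8 wholly higher and 5 of 8 wholly lower, and their part in these changes was not tested.

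PGE2 on top of IL-4 lowered all 6 SLAM receptors in wild type cells. Slamf8, a receptor that restrains the reactive oxygen response of phagocytes in mice, had 3.83, 4.46 and 6.62 CPM with IL-4 and PGE2, against 28.9, 31.7 and 27.7 CPM with IL-4 alone. Its log2 fold change was -2.59 ± 0.14 (edgeR adjusted p = 2.53e-12), which is 6.03-fold lower. Slamf9 had 12.8, 13.5 and 11.1 CPM with IL-4 and PGE2, against 22.6, 20.5 and 22.5 CPM with IL-4, a change of -0.80 ± 0.09 (adjusted p = 5.65e-08). Slamf7, which promotes phagocytosis of blood cancer cells by mouse macrophages, had 80.6, 99.5 and 94.8 CPM with IL-4 and PGE2, against 111, 127 and 110.2 CPM with IL-4. The groups did not overlap, and the change of -0.35 ± 0.07 passed the test (adjusted p = 0.000393). Cd84, Cd48 and Ly9 fell together by similar amounts, with log2 fold changes of -0.54 ± 0.04, -0.50 ± 0.05 and -0.49 ± 0.05 (adjusted p = 2.84e-10, 9.64e-09 and 1.92e-09).

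The CD300 receptors went in different directions with PGE2. Cd300lf rose the most of the 10, to 10.6, 8.84 and 10.1 CPM with IL-4 and PGE2, against 3.75, 4.94 and 3.83 CPM with IL-4 alone, a log2 fold change of 1.24 ± 0.14 (edgeR adjusted p = 8.59e-08). Cd300ld had 884, 928 and 863 CPM with IL-4 and PGE2, against 674, 664 and 687 CPM with IL-4, and also rose, by 0.40 ± 0.04 (adjusted p = 1.68e-08). Cd300a, the other inhibitory receptor, fell to 113, 127 and 129.8 CPM with IL-4 and PGE2, against 198, 216 and 216 CPM with IL-4 (log2 fold change -0.77 ± 0.05, adjusted p = 7.79e-12). Both inhibitory receptors thus changed with PGE2 in opposite directions. Cd300lb had a log2 fold change of -0.06 ± 0.05 and did not pass the test (adjusted p = 0.301). In all, 2 receptors rose and 7 fell, against 29.9% of genes tested that rose and 29.5% that fell, and the median of the 10 was -0.50, against 0.01 over all genes tested. The macrophage markers summed to 17020 to 18870 CPM with IL-4 and PGE2 and 15700 to 17070 CPM with IL-4 alone, with 3 of 8 above and 2 of 8 below the range of the IL-4 libraries, and their part in these changes was not tested.

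**Figure D1:**
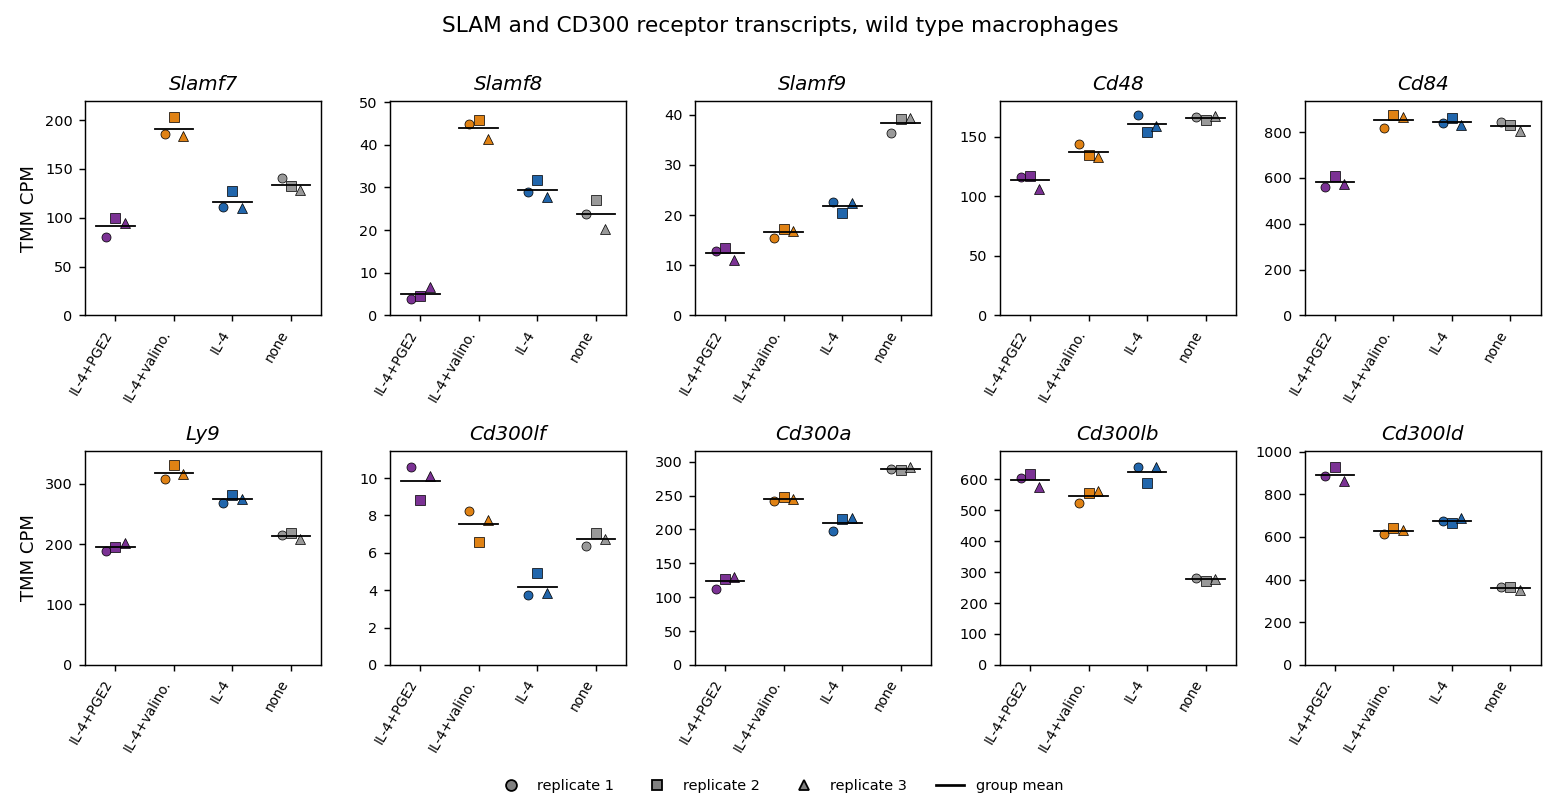
CPM of the 10 receptors in wild type macrophages, a panel each, with a linear vertical axis from 0, points for the libraries by replicate and a line at the group mean. The groups are, from the left, IL-4 with PGE2, IL-4 with valinomycin, IL-4 alone and no stimulus. Slamf8 is lowest with PGE2 (mean 4.97 CPM) and highest with valinomycin (44.0 CPM), and Cd300lf is lowest with IL-4 alone (4.17 CPM).

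Valinomycin on top of IL-4 gave a different pattern, set against the same IL-4 libraries as PGE2. Slamf7 rose, with 186, 203 and 184 CPM with IL-4 and valinomycin, against 111, 127 and 110.2 CPM with IL-4 alone, a log2 fold change of 0.71 ± 0.07 (edgeR adjusted p = 1.22e-07). Slamf8 rose too, with 44.9, 45.8 and 41.4 CPM, against 28.9, 31.7 and 27.7 CPM with IL-4, by 0.58 ± 0.10 (adjusted p = 8.55e-05). Every valinomycin library was above every IL-4 library for both genes. Cd300lf rose by 0.85 ± 0.15 (adjusted p = 7.26e-05), with 8.26, 6.60 and 7.77 CPM with IL-4 and valinomycin. Cd300a and Ly9 rose by 0.22 ± 0.05 and 0.21 ± 0.04 (adjusted p = 0.00107 and 0.000525). Slamf9, Cd48 and Cd300lb fell, with log2 fold changes of -0.40 ± 0.09, -0.22 ± 0.05 and -0.19 ± 0.05 (adjusted p = 0.000616, 0.000933 and 0.00235). Cd300ld (-0.10 ± 0.04) and Cd84 (0.01 ± 0.04) did not pass the test. In all, 5 receptors rose and 3 fell, against 19.4% and 18.9% of the genes tested. Macrophage markers summed to 14360 to 15160 CPM with IL-4 and valinomycin and 15700 to 17070 CPM with IL-4 alone, with 1 of 8 higher and 4 of 8 lower without overlap, and their part was not tested.

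Set directly against valinomycin, PGE2 gave lower levels of all 6 SLAM receptors. Slamf8 was 9.01-fold lower with PGE2 than with valinomycin (log2 fold change -3.17 ± 0.13, edgeR adjusted p = 2.99e-14), and Slamf7 2.08-fold lower (-1.06 ± 0.07, adjusted p = 1.05e-10). Cd300a was lower by a like amount (-0.99 ± 0.05, adjusted p = 5.48e-14). Ly9, Cd84, Slamf9 and Cd48 were lower with log2 fold changes of -0.70, -0.55, -0.40 and -0.28. Cd300ld (0.50 ± 0.04, adjusted p = 2.88e-10), Cd300lf (0.38 ± 0.13, 0.0124) and Cd300lb (0.13 ± 0.05, 0.0165) were higher with PGE2. All 10 receptors passed this test, 3 higher and 7 lower, against 31.7% and 31.5% of the genes tested. The Cd300lf call was lost with DESeq2 (adjusted p = 0.0522), without PGE2 replicate 1 (0.0767) or without valinomycin replicate 2 (0.0829), within a range of 0.00858 to 0.0829 over 11 alternatives. The Cd300lb call was lost with no low-count filter (adjusted p = 0.0651), without PGE2 replicate 1 (0.0659), PGE2 replicate 2 (0.0849) or valinomycin replicate 1 (0.125), within a range of 0.00932 to 0.125. The macrophage marker sums were 17020 to 18870 CPM with PGE2 and 14360 to 15160 CPM with valinomycin, with 5 of 8 wholly higher and 2 of 8 wholly lower, and their part was not tested.

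Over the 4 wild type groups, the order of levels differed from gene to gene. Slamf7, Slamf8 and Ly9 were highest with valinomycin and lowest with PGE2, and all 4 groups were separate for each of them. Slamf9 was highest without stimulus and stepped down through IL-4 and valinomycin to PGE2, again with no overlap between neighbours. Cd48 followed the same order as Slamf9, but unstimulated and IL-4 libraries overlapped. Cd84 was lowest with PGE2 and overlapped among the other 3 groups. Cd300ld was highest with PGE2 and lowest without stimulus, with all neighbours separate, while Cd300lb overlapped between IL-4 alone and IL-4 with PGE2.

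The same stimuli were tested within each hairpin. These libraries also enter the contrast that chose the genes. The comparison within a hairpin is a different one, but the results of Slamf7 and Cd300lf in it are not independent of that choice. In control shRNA cells IL-4 again raised Cd300ld and Cd300lb. Cd300ld had 479, 413 and 489.7 CPM with IL-4, against 152, 126 and 157 CPM without stimulus, and rose by 1.67 ± 0.13 (edgeR adjusted p = 4.74e-08). Cd300lb had 797, 708 and 793 CPM with IL-4, against 267, 264 and 273 CPM, and rose by 1.51 ± 0.12 (adjusted p = 2.96e-08). Slamf8, Ly9, Cd48 and Cd84 rose by 1.17 ± 0.28, 0.61 ± 0.14, 0.47 ± 0.06 and 0.46 ± 0.13 (adjusted p = 0.00298, 0.00298, 6.66e-06 and 0.00926), and Slamf9 fell (-0.63 ± 0.15, adjusted p = 0.00236). In all, 6 receptors rose and 1 fell, against 17.2% and 17.1% of the 12382 genes tested in the hairpin experiment. Cd300lf (0.34 ± 0.24), Slamf7 (0.44 ± 0.20) and Cd300a (-0.27 ± 0.18) did not pass the test. In wild type cells Cd300lf and Slamf7 had fallen with IL-4, and Cd48 and Cd84 had not passed. The fall of Cd300lf in wild type cells was thus not seen here. With the replicate number as a block, Slamf7 passed at 0.43 (adjusted p = 2.5e-05) and Cd300a at -0.27 (0.00338). Slamf7 also passed without unstimulated replicate 2 (0.0397) or IL-4 replicate 1 (0.0426) and Cd300a without IL-4 replicate 2 (0.045), with ranges over 11 alternatives of 2.5e-05 to 0.443 and 0.00338 to 0.749. Their macrophage markers summed to 15900 to 17060 CPM with IL-4 and 18310 to 20290 CPM without stimulus (3 of 8 wholly higher, 2 wholly lower), and the part of these in the changes was not tested.

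In Etv1 shRNA cells IL-4 raised 4 receptors, against 10.9% of genes tested. It lowered 0 in edgeR and 0 in DESeq2, with 0 lower at an unadjusted p under 0.05 in edgeR, against 7.16% of genes tested. Cd300ld had 117, 109 and 137 CPM with IL-4, against 43.03, 38.2 and 45.05 CPM without stimulus, a rise of 1.53 ± 0.14 (edgeR adjusted p = 9.03e-07). Cd300lb had 335, 308 and 372 CPM with IL-4, against 172, 153 and 179.7 CPM, a rise of 1.01 ± 0.12 (adjusted p = 1.03e-05). Cd84 and Cd48 rose by 0.69 ± 0.13 and 0.30 ± 0.07 (adjusted p = 0.00111 and 0.0023). Cd300ld and Cd300lb thus rose with IL-4 in wild type, control shRNA and Etv1 shRNA cells alike. Slamf7, Slamf8, Slamf9, Ly9, Cd300lf and Cd300a had log2 fold changes of 0.58, 1.07, 0.10, 0.34, -0.10 and -0.21 and did not pass. With the replicate number as a block 7 passed, the others being Slamf7 (0.60, adjusted p = 0.0146), Ly9 (0.34, 1.97e-05) and Cd300a (-0.21, 0.03), with ranges over the alternatives of 0.0146 to 0.738, 1.97e-05 to 0.375 and 0.03 to 0.754. Slamf8 passed without IL-4 replicate 1 (1.40, adjusted p = 0.0281), within a range of 0.0281 to 0.407. It had passed the low-count filter only through control shRNA libraries and held 14 reads without stimulus and 29 with IL-4. Nothing is therefore read from its test in these cells. The macrophage marker sum was 9466 to 10070 CPM with IL-4 and 8902 to 9483 CPM without stimulus in Etv1 shRNA cells (3 of 8 wholly higher, 2 wholly lower), and its part was not tested.

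PGE2 lowered the SLAM receptors in control shRNA cells as well. Slamf8 had 0.244, 0.469 and 0.503 CPM with IL-4 and PGE2, against 2.42, 3.05 and 2.59 CPM with IL-4 alone, a log2 fold change of -2.56 ± 0.34 (edgeR adjusted p = 2.31e-06). These levels rest on 20 reads with PGE2 and 83 with IL-4 alone. Slamf8 passed the low-count filter through libraries without PGE2, where it is higher, so nothing is read from its test. Slamf9 had 6.34, 6.57 and 5.57 CPM with IL-4 and PGE2, against 22.4, 24.7 and 23.9 CPM with IL-4, and fell with a log2 fold change of -1.97 ± 0.18 (adjusted p = 1.43e-08). Slamf7 had 45.4, 58.6 and 46.5 CPM with IL-4 and PGE2, against 72.4, 123 and 79.01 CPM with IL-4, and fell with a log2 fold change of -0.87 ± 0.20 (adjusted p = 0.00209). All 3 were separate from IL-4 alone in every library. Cd48, Ly9 and Cd84 fell with log2 fold changes of -1.17 ± 0.07, -1.02 ± 0.14 and -0.90 ± 0.13 (adjusted p = 1.48e-11, 1.84e-05 and 1.58e-05).

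In the same control shRNA cells Cd300lf had 209.5, 107 and 189 CPM with IL-4 and PGE2, against 106, 70.6 and 79.8 CPM with IL-4 alone. The lowest PGE2 library was just above the highest IL-4 library, and the rise of 0.97 ± 0.23 passed the test (edgeR adjusted p = 0.00276). Cd300ld rose by 0.32 ± 0.12 (adjusted p = 0.0341) and Cd300a fell with a log2 fold change of -0.52 ± 0.18 (adjusted p = 0.0228), although its libraries overlapped. In all, 2 receptors rose and 7 fell, against 29.3% and 30.1% of genes tested. The 7 include Slamf8, from whose test nothing is read. The counts also include Slamf7 and Cd300lf, on which the choice of the genes rested. The median of the 10 was -0.88, against -0.01 over all genes. The Cd300a call was lost with the compared groups fitted alone (adjusted p = 0.0762) and without IL-4 replicate 2 (0.127), PGE2 replicate 1 (0.0885) or PGE2 replicate 3 (0.0926), in a range of 2.06e-06 to 0.127, and its change without IL-4 replicate 2 was -0.31. The Cd300ld call was lost with no low-count filter (adjusted p = 0.116) and without IL-4 replicates 1 (0.052) or 2 (0.133) or PGE2 replicates 1 (0.125) or 3 (0.0813), in a range of 2.39e-05 to 0.133. Cd300lb (-0.26 ± 0.11, adjusted p = 0.0617) passed with the replicate number as a block (-0.26, adjusted p = 0.00189), with the compared groups alone (0.0465) and without IL-4 replicate 2 (0.0483) or PGE2 replicate 1 (0.0256), in a range of 0.00189 to 0.257. In control shRNA cells the macrophage markers summed to 19330 to 21470 CPM with IL-4 and PGE2 and 15900 to 17060 CPM with IL-4 alone (3 of 8 wholly higher, 3 wholly lower), and their part was not tested.

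In Etv1 shRNA cells PGE2 lowered 7 receptors, Slamf8 among them, against 22.8% of genes tested. It raised 0 in edgeR and 0 in DESeq2, with 0 higher at an unadjusted p under 0.05 in edgeR, against 24.6% of genes tested. Slamf9 had 3.03, 3.05 and 3.11 CPM with IL-4 and PGE2, against 6.93, 8.10 and 11.6 CPM with IL-4 alone, a log2 fold change of -1.54 ± 0.22 (edgeR adjusted p = 1.16e-05). Slamf8 came to only 2 reads in all 3 libraries with IL-4 and PGE2, against 29 reads with IL-4 alone, a ratio of 0.0648 after scaling (95% exact interval 0.00749 to 0.256, for counting error only). Slamf8 was called by edgeR (adjusted p = 9.63e-05). It passed the low-count filter only through control shRNA libraries, so nothing is read from this call. Ly9, Cd84 and Cd48 fell with log2 fold changes of -0.84 ± 0.14, -0.60 ± 0.13 and -0.54 ± 0.07 (adjusted p = 0.000213, 0.00117 and 1.51e-06), and Cd300a and Cd300lb with -0.59 ± 0.18 and -0.45 ± 0.12 (adjusted p = 0.0154 and 0.00418). Cd300lf had 8.99, 5.89 and 10.6 CPM with IL-4 and PGE2, against 6.83, 7.27 and 10.7 CPM with IL-4, and Cd300ld had 122, 98.9 and 137 CPM, against 117, 109 and 137 CPM. Both overlapped between the conditions, with log2 fold changes of 0.05 ± 0.37 and -0.02 ± 0.13 that did not pass. Slamf7 had 2.19, 3.15 and 2.51 CPM with IL-4 and PGE2, against 2.90, 5.43 and 4.19 CPM with IL-4, and its change of -0.70 ± 0.43 did not pass (adjusted p = 0.198).

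For these Etv1 shRNA cells Slamf7 did pass with the replicate number as a block (-0.67, adjusted p = 0.0026), with DESeq2 (0.0369) and with the compared groups alone (0.0325), in a range of 0.0026 to 0.486 over 11 alternatives. The Cd300a call was lost without IL-4 replicate 2 (-0.50, adjusted p = 0.0619) or PGE2 replicate 3 (-0.54, 0.0537), in a range of 6.98e-07 to 0.0619, and the Cd300lb call with the compared groups alone (0.0581), in a range of 1.05e-05 to 0.0581. The macrophage markers of Etv1 shRNA cells summed to 9782 to 10390 CPM with IL-4 and PGE2 and 9466 to 10070 CPM with IL-4 alone (3 of 8 wholly higher, 3 wholly lower), and their part was not tested.

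**Figure D2:**
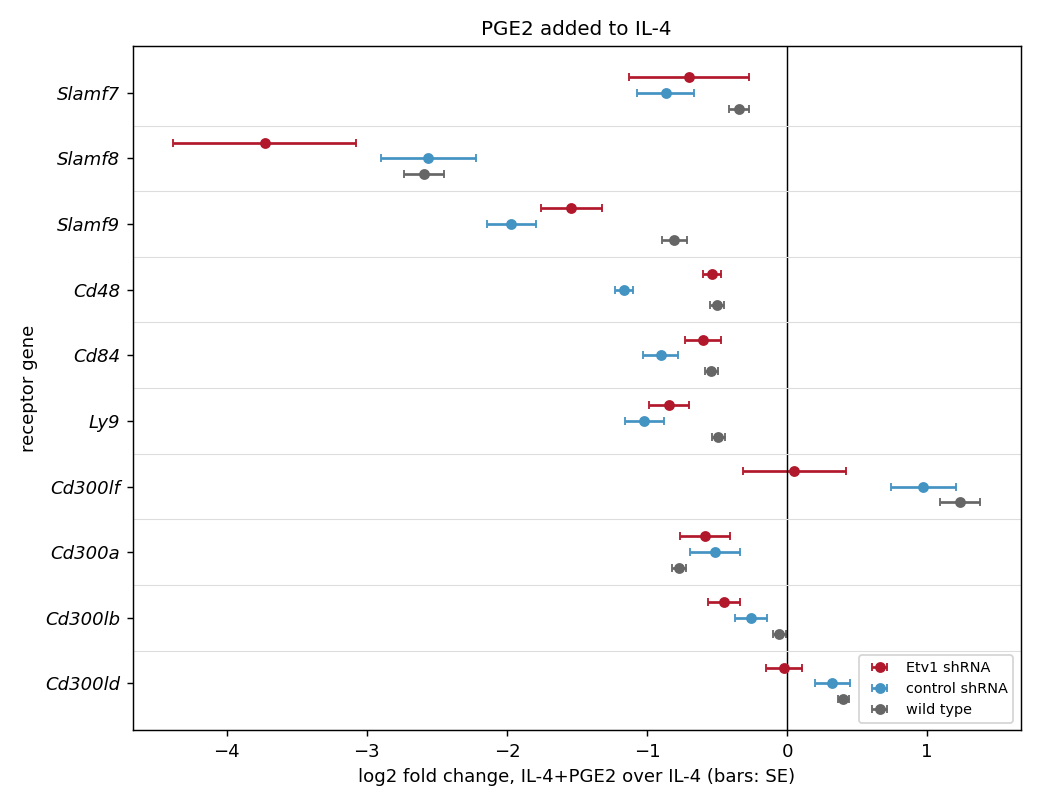
Log2 fold change of each receptor with IL-4 and PGE2 against IL-4 alone, as points with bars of ± 1 SE, for Etv1 shRNA, control shRNA and wild type cells. The 6 SLAM receptors lie below 0 in all 3 kinds of cell, while Cd300lf lies at 0.05 in Etv1 shRNA, 0.97 in control shRNA and 1.24 in wild type cells.

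Whether the PGE2 effect differed between the hairpins was tested as an interaction for the 8 receptors other than Slamf7 and Cd300lf. Cd48 passed: its PGE2 effect was -0.54 in Etv1 shRNA and -1.17 in control shRNA cells, a difference of 0.63 ± 0.09 (edgeR adjusted p = 0.000178). Cd48 had 71.4, 70.4 and 64.7 CPM in Etv1 shRNA cells with IL-4 and PGE2, against 73.7, 73.4 and 67.3 CPM in control shRNA cells. With IL-4 alone it had 91.9, 104 and 104 CPM in Etv1 shRNA cells, against 157, 174 and 149 CPM in control shRNA cells. The hairpin groups were apart with IL-4 and overlapped once PGE2 was added. The other 7 ranged from -1.17 ± 0.82 for Slamf8 to 0.43 ± 0.29 for Slamf9 and did not pass, so 1 of 8 was called, against 11.6% of all genes. Slamf8 had only 2 reads in Etv1 shRNA cells with PGE2 and passed the low-count filter through control shRNA libraries alone, so its test carries no weight, and 1 of the other 7 was called. With the replicate number as a block Cd300ld also passed (-0.35, adjusted p = 0.00386, in a range of 0.00386 to 0.539 over 17 alternatives). Described without a test, the difference was -0.92 ± 0.44 for Cd300lf and 0.17 ± 0.48 for Slamf7.

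For the IL-4 effect, none of the 8 receptors passed the interaction test in edgeR, against 4.51% of all genes, with 2 of the 8, Slamf9 and Cd300lb, at an unadjusted p under 0.05 and 1, Cd300lb, called by DESeq2. Slamf8 had 14 reads without stimulus and 29 with IL-4 in Etv1 shRNA cells, and nothing is read from its test here either. The difference was 0.73 ± 0.24 for Slamf9 (edgeR adjusted p = 0.101) and -0.51 ± 0.16 for Cd300lb (adjusted p = 0.102). With the replicate number as a block 3 passed, Slamf9 (0.73, adjusted p = 0.0293), Cd300lb (-0.50, 0.00193) and Ly9 (-0.27, 0.0173). Cd300lb also passed with DESeq2 (adjusted p = 0.0305) and the compared groups alone (0.00952), and Slamf9 without unstimulated Etv1 shRNA replicate 3 (1.02, 0.0156) or unstimulated control shRNA replicate 2 (0.83, 0.0479). Over 17 alternatives the adjusted p ran from 0.0156 to 0.322 for Slamf9, 0.00193 to 0.273 for Cd300lb and 0.0173 to 0.855 for Ly9. Slamf9 had 6.93, 8.10 and 11.6 CPM with IL-4 and 6.86, 6.78 and 10.8 CPM without stimulus in Etv1 shRNA cells, and 22.4, 24.7 and 23.9 CPM with IL-4 and 38.05, 30.98 and 40.5 CPM without stimulus in control shRNA cells. The groups overlapped in Etv1 shRNA cells and were apart in control shRNA cells.

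The contrast of the hairpins, which chose the set, is given as a description. Slamf7 had 2.15, 3.85 and 2.26 CPM in unstimulated Etv1 shRNA cells, against 58.9, 81.7 and 60.2 CPM in control shRNA cells. With IL-4 it had 2.90, 5.43 and 4.19 CPM in Etv1 shRNA cells, against 72.4, 123 and 79.01 CPM, and with IL-4 and PGE2 2.19, 3.15 and 2.51 CPM, against 45.4, 58.6 and 46.5 CPM. No Etv1 shRNA library came near a control shRNA library, and the log2 fold changes were -4.56 ± 0.30, -4.43 ± 0.28 and -4.26 ± 0.30, or 23.6-fold, 21.6-fold and 19.2-fold lower. Cd300lf had 7.40, 9.71 and 9.21 CPM in unstimulated Etv1 shRNA cells, against 75.2, 58.9 and 69.2 CPM in control shRNA cells. Its Etv1 shRNA levels with IL-4 and with IL-4 and PGE2, given above, stayed within 5.89 to 10.7 CPM, while the control shRNA libraries reached 209.5 CPM with PGE2. Wild type libraries, fitted apart and set beside these with no test, held 3.75 to 10.58 CPM of Cd300lf. Between the hairpins, the log2 fold changes of Cd300lf were -2.93 ± 0.30 without stimulus, -3.37 ± 0.30 with IL-4 and -4.29 ± 0.29 with IL-4 and PGE2.

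**Figure D3:**
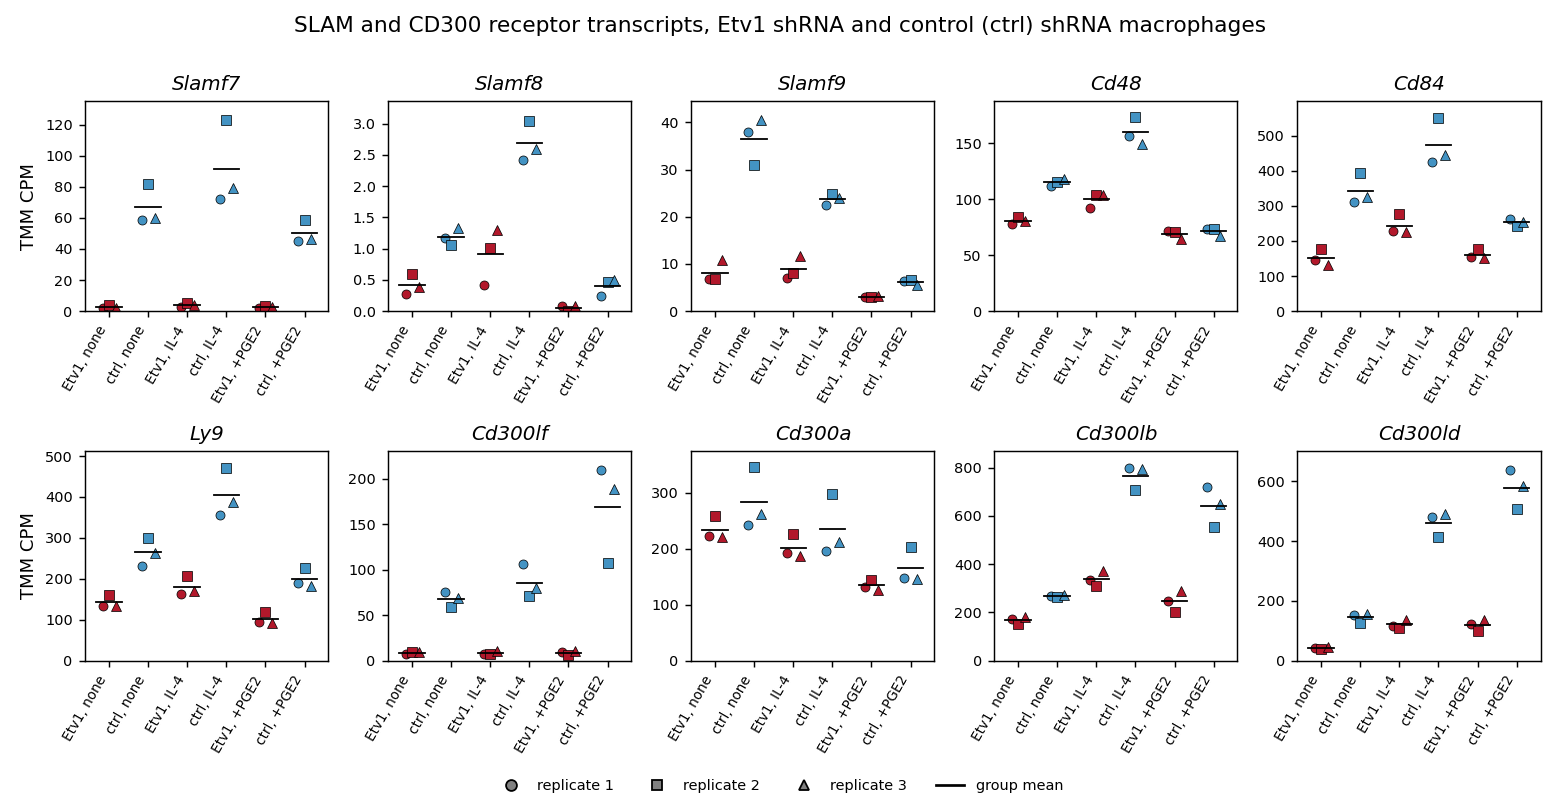
CPM of the 10 receptors in the hairpin experiment, a panel each, with a linear vertical axis from 0, points for the libraries by replicate and a line at the group mean. Etv1 shRNA stands left of control shRNA for no stimulus, IL-4, and IL-4 with PGE2. Slamf7 and Cd300lf are apart between hairpins in every condition, while Cd300a lies close, at means of 234 CPM in Etv1 shRNA and 283.5 CPM in control shRNA cells without stimulus.

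The other receptors were lower with Etv1 shRNA to lesser and varied degrees. Cd300ld had log2 fold changes of -1.79 ± 0.14 without stimulus, -1.93 ± 0.13 with IL-4 and -2.27 ± 0.13 with IL-4 and PGE2, and its activating relative Cd300lb -0.67 ± 0.12, -1.18 ± 0.12 and -1.37 ± 0.12. Slamf9 had -2.13 ± 0.17, -1.40 ± 0.17 and -0.97 ± 0.23 in the same order, so that its gap was widest without stimulus. Slamf8 had -1.42 ± 0.40 without stimulus and -1.52 ± 0.31 with IL-4. In the PGE2 condition it rested on 2 reads in Etv1 shRNA cells and 20 in control shRNA cells, a ratio of 0.134 after scaling (95% exact interval 0.0152 to 0.551). Slamf8 passed the low-count filter of the hairpin experiment only through the control shRNA libraries, and the other 9 receptors passed in both.

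Cd84, Ly9 and Cd48, the SLAM receptors with the highest levels per kb, had gaps smaller than those of Slamf7 in every condition. Cd84 had log2 fold changes of -1.18 ± 0.13 without stimulus, -0.95 ± 0.13 with IL-4 and -0.65 ± 0.13 with IL-4 and PGE2. Ly9 had -0.89 ± 0.14, -1.16 ± 0.14 and -0.99 ± 0.14, and Cd48 -0.51 ± 0.06, -0.68 ± 0.06 and -0.05 ± 0.07. Cd300a, at the other end of the CD300 cluster from Cd300lf, had the smallest gap without stimulus and with IL-4, at -0.27 ± 0.18 and -0.22 ± 0.18, and -0.29 ± 0.18 with IL-4 and PGE2.

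The Etv1 shRNA libraries lay wholly below the control shRNA libraries for 9 of the 10 receptors in each condition, the exceptions being Cd300a without stimulus and with IL-4, and Cd48 with IL-4 and PGE2. Of all genes tested, 30.1% lay wholly below and 28.4% wholly above without stimulus, 29% and 28.9% with IL-4, and 29.6% and 30.6% with IL-4 and PGE2. Since the set was selected on this contrast, nothing is read from the count. The medians of the 10 were -1.30 without stimulus, -1.29 with IL-4 and -1.18 with IL-4 and PGE2, against -0.01, -0.004 and -0.001 over all genes tested. Macrophage markers moved with the hairpin too. Their sum was 8902 to 9483 CPM in Etv1 shRNA cells and 18310 to 20290 CPM in control shRNA cells without stimulus, 9466 to 10070 and 15900 to 17060 CPM with IL-4, and 9782 to 10390 and 19330 to 21470 CPM with IL-4 and PGE2. Of the 8 markers, 6, 6 and 5 lay wholly lower in Etv1 shRNA cells in these conditions and 1 wholly higher in each, none was at 0, and their part in the receptor levels was not tested.

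**Figure D4:**
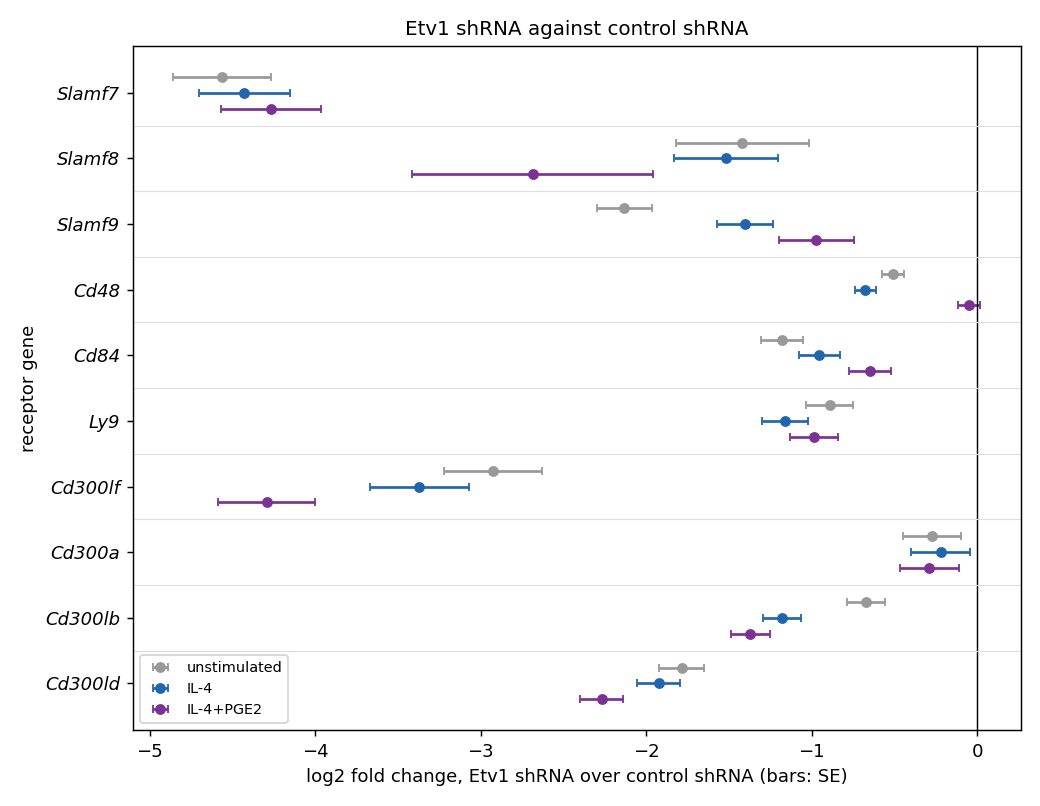
Log2 fold change of each receptor in Etv1 shRNA against control shRNA cells, as points with bars of ± 1 SE, without stimulus, with IL-4, and with IL-4 and PGE2. Slamf7 lies beyond -4 in all 3 conditions, Cd300lf lies at -2.93 without stimulus and -4.29 with IL-4 and PGE2, and Cd300a stays between -0.29 and -0.22.

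Over the 6 groups of the hairpin experiment, Slamf7 stood highest in control shRNA cells with IL-4, whose libraries overlapped those without stimulus, then with IL-4 and PGE2, and the 3 Etv1 shRNA groups overlapped at the bottom. Cd300lf stood highest in control shRNA cells with IL-4 and PGE2, overlapped between the other control shRNA groups, and overlapped among all Etv1 shRNA groups. Cd48 stepped down through 4 separate groups, from control shRNA with IL-4 to unstimulated Etv1 shRNA cells, and the groups with PGE2 overlapped at the bottom. For Cd300a, neighbours in the order overlapped down to control shRNA cells with IL-4 and PGE2, and Etv1 shRNA cells with PGE2 stood apart below. Replicates carried a shared pattern for several receptors. Replicate 2 was the highest of the 3 libraries in 6 of 6 groups for Slamf7, Ly9 and Cd300a and in 5 of 6 for Cd84. It was the lowest in 6 of 6 groups for Cd300lb and Cd300ld and in 4 of 6 for Cd300lf. In the wild type experiment no receptor had the same replicate highest in all 4 groups.

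The sequences before the transcription starts of Slamf7 and Cd300lf are shown because these 2 genes led the hairpin contrast and Etv1 belongs to the ETS family, whose members bind DNA around a GGAA core. RefSeq (GRCm38.p6) gives a start for 9 of the 10 receptors, Ly9 being the one with none in the table. Each sequence runs 5′ to 3′ on the gene's strand from 250 bases before to 50 bases after the start, 300 bases in all, with every GGAA on either strand (GGAA or TTCC) in capitals. Both genes are on the minus strand, Slamf7 at chr1:171648950-171649249 and Cd300lf at chr11:115133943-115134242. The RefSeq start of Slamf7 lies inside its GENCODE span.
Slamf7: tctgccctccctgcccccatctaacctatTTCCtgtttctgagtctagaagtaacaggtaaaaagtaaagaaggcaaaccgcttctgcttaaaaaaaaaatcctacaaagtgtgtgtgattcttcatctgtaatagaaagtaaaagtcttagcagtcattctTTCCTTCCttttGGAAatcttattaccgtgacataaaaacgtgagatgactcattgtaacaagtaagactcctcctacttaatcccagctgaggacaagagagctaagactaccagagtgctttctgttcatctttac
Cd300lf: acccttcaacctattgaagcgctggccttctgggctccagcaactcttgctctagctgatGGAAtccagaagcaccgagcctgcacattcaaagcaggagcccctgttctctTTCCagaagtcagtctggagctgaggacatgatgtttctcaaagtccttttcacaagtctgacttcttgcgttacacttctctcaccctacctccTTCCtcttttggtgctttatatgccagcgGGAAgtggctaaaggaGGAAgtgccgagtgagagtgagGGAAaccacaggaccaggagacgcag

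The GGAA core stood at 4 places in the Slamf7 window and 6 in that of Cd300lf, and at 3 to 7 places in the windows of all 9 receptors. It is held by 95.96% of 32544 mouse promoters of the same length. The longer ETS form CCGGAA, present in 14.98% of promoters, was found on either strand only in Cd48, at 1 place. The cyclic AMP response half-site TGACG, present in 20.91%, was found only in Cd300lb, at 1 place. A STAT6-type site of TTC and GAA with 4 bases between them, present in 6.98%, was found in none of the 9 windows. The AP-1-type motif TGANTCA, present in 7.79%, was found in Slamf7, Cd84 and Slamf8. A match of these letters is not a binding site, and a window without one says nothing of the factor.

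Of 25 further genes of these receptor pathways (other SLAM and CD300 receptors, adaptors, kinases and phosphatases), 19 were tested in wild type cells and 17 in the hairpin experiment. With PGE2 in wild type cells 6 of 19 rose and 4 fell, against 29.9% and 29.5% of all genes tested. Cd244a, the receptor that binds Cd48, had 61.96, 55.8 and 56.4 CPM with IL-4 and PGE2, against 14.8, 14.99 and 16.02 CPM with IL-4 alone, and rose by 1.93 ± 0.08 (edgeR adjusted p = 7.23e-16). Inpp5d, the lipid phosphatase SHIP1, rose by 0.83 ± 0.05 (adjusted p = 3.75e-13) and Cd300lg fell with a log2 fold change of -1.32 ± 0.37 (adjusted p = 0.00376). Sh2d1b1, which encodes the adaptor EAT-2, fell with a log2 fold change of -0.72 ± 0.26 (adjusted p = 0.0258), a call lost without IL-4 replicates 1 (adjusted p = 0.0735) or 2 (0.0889) or PGE2 replicates 2 (0.0613) or 3 (0.0823), in a range of 0.00033 to 0.0889. Receptor and ligand of the Cd244 and Cd48 pair therefore changed in opposite directions with PGE2 in wild type cells. As Cd244a overlaps Ly9 on the other strand, its counts are uncertain where strand was not used.

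With IL-4 in wild type cells 3 of 19 pathway genes rose and 7 fell, against 24% and 22.4% of all genes. Fyn, a Src-family kinase that acts with the adaptor SAP, rose by 2.40 ± 0.08 (edgeR adjusted p = 6e-13), to 311, 288 and 277 CPM with IL-4, against 51.01, 54.8 and 59.3 CPM without stimulus. Cd300e fell, as given above, and Slamf6 rose by 1.63 ± 0.32 (adjusted p = 0.000207) at under 2 CPM. Slamf1 rose by 1.17 ± 0.42 (adjusted p = 0.0245), a call lost with DESeq2 (0.0814) and without unstimulated replicates 1 (0.0876) or 2 (0.074) or IL-4 replicate 1 (0.106), in a range of 0.0223 to 0.106. With valinomycin 4 rose and 5 fell, against 19.4% and 18.9% of all genes. Cd244a rose by 0.58 ± 0.09 (adjusted p = 1.23e-05) and Ptpn6, the phosphatase SHP-1, fell with a log2 fold change of -0.39 ± 0.05 (2.41e-06). Cd300e (-0.9997 ± 0.37, adjusted p = 0.0471) and Cd300lg (-0.93 ± 0.34, 0.0346) fell too. Both of these calls were lost with DESeq2, with no low-count filter, and without IL-4 replicate 1 or valinomycin replicates 2 or 3. That of Cd300e was also lost without IL-4 replicate 3 or valinomycin replicate 1, and that of Cd300lg with the compared groups alone, with adjusted p of 0.044 to 0.196 and 0.0268 to 0.226 over their alternatives. Set against valinomycin, PGE2 gave 10 higher and 2 lower, against 31.7% and 31.5% of all genes, with Cd300e at 1.59 ± 0.34 (adjusted p = 0.000319), Cd244a at 1.34 ± 0.07 (1.52e-13), Inpp5d at 0.70 ± 0.05 (5.39e-12) and Slamf6 at 0.73 ± 0.23 (0.00837). The Slamf6 call was lost with DESeq2 (adjusted p = 0.0526, in a range of 0.00875 to 0.0526).

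Within the hairpins, IL-4 raised 4 of the 17 pathway genes in Etv1 shRNA cells, against 10.9% of all genes. It raised 5 and lowered 3 in control shRNA cells, against 17.2% and 17.1%. Fyn rose by 1.59 ± 0.15 in Etv1 shRNA cells (edgeR adjusted p = 1.75e-06) and by 2.42 ± 0.14 in control shRNA cells (adjusted p = 2.8e-09). Cd244a rose by 1.74 ± 0.26 in Etv1 shRNA cells (adjusted p = 6.78e-05) and by 1.77 ± 0.15 in control shRNA cells (adjusted p = 1.08e-08). Cd300c2 rose by 0.46 ± 0.07 in Etv1 shRNA cells (adjusted p = 7.39e-05), as did Cd300e by 0.65 ± 0.18 (0.018), a call lost without unstimulated replicate 1 (adjusted p = 0.0795) or IL-4 replicate 3 (0.0811), in a range of 0.00943 to 0.0811. In control shRNA cells Slamf6 and Cd300ld3 rose by 1.79 ± 0.45 and 0.67 ± 0.16 (adjusted p = 0.00381 and 0.00225).

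With PGE2, 4 pathway genes rose and 3 fell in Etv1 shRNA cells, against 24.6% and 22.8% of all genes, and 5 rose and 6 fell in control shRNA cells, against 29.3% and 30.1%. Cd244a rose by 1.66 ± 0.17 and Inpp5d by 0.66 ± 0.04 in Etv1 shRNA cells (edgeR adjusted p = 2.28e-07 and 6.77e-10). Ptpn6 fell with a log2 fold change of -0.78 ± 0.05 in Etv1 shRNA cells (adjusted p = 5.07e-10) and of -1.33 ± 0.05 in control shRNA cells (adjusted p = 1.04e-13), and the difference of 0.55 ± 0.07 passed the interaction test (adjusted p = 7.29e-05). Sh2d1b1 also differed, by 1.26 ± 0.24 (adjusted p = 0.0019), and so did Cd244a, by 0.78 ± 0.22 (0.0243), the only 3 of the 17 to pass, against 11.6% of all genes. The Cd244a difference was lost without Etv1 shRNA IL-4 replicate 1 (0.55, adjusted p = 0.085) or PGE2 replicate 2 (0.0598), or control shRNA IL-4 replicate 1 (0.0531) or PGE2 replicates 1 (0.0516) or 3 (0.055), in a range of 0.00459 to 0.085 over 17 alternatives. Syk, the kinase downstream of Tyrobp and Fcer1g, rose with PGE2 by 0.72 ± 0.14 in Etv1 shRNA cells (adjusted p = 0.000758) and 0.88 ± 0.14 in control shRNA cells (adjusted p = 7.78e-05). In control shRNA cells Slamf6 and Cd300lg fell with log2 fold changes of -1.10 ± 0.41 and -1.09 ± 0.44 (adjusted p = 0.0264 and 0.0398), at under 2 CPM for Slamf6. Both calls were lost with DESeq2 and without PGE2 replicate 3, that of Slamf6 also without IL-4 replicate 3 or PGE2 replicate 2, and that of Cd300lg without IL-4 replicate 1 (-0.56) or PGE2 replicate 1, with adjusted p of 0.0162 to 0.102 and 0.0209 to 0.382 over 10 alternatives each. For the IL-4 effect 4 of the 17 differed between hairpins: Cd300e by 0.87 ± 0.24 (adjusted p = 0.0423), Fyn by -0.83 ± 0.20 (0.0283), Ptpn6 by 0.34 ± 0.07 (0.00914) and Inpp5d by 0.27 ± 0.06 (0.0154). Against these 4, 4.51% of all genes passed. The Cd300e call was lost with DESeq2 (0.052), with the compared groups alone (0.06), and without unstimulated Etv1 shRNA replicates 1 or 2, any Etv1 shRNA IL-4 replicate, unstimulated control shRNA replicates 1 or 3, or control shRNA IL-4 replicate 1, in a range of 0.0131 to 0.147 over 17 alternatives. The Fyn call was lost with no low-count filter (0.0885) and without unstimulated Etv1 shRNA replicate 3, Etv1 shRNA IL-4 replicates 1 or 2, any unstimulated control shRNA replicate, or control shRNA IL-4 replicates 1 or 3, in a range of 7.67e-05 to 0.0892. The Inpp5d call was lost with no low-count filter (0.0749) and without unstimulated Etv1 shRNA replicate 3 (0.0522) or control shRNA IL-4 replicate 1 (0.0765), in a range of 0.000386 to 0.0765. The Ptpn6 call was lost without control shRNA IL-4 replicate 1 (0.0607), in a range of 0.000769 to 0.0607. The count fell to 0 without control shRNA IL-4 replicate 1. It fell to 2 with no low-count filter and without unstimulated Etv1 shRNA replicate 3, Etv1 shRNA IL-4 replicates 1 or 2, or unstimulated control shRNA replicates 1 or 3.

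Between the hairpins, again as a description, 14 of the 17 pathway genes lay wholly below control shRNA and 1 wholly above without stimulus, 12 and 0 with IL-4, and 12 and 1 with IL-4 and PGE2. Over all genes tested the shares below and above were 30.1% and 28.4%, 29% and 28.9%, and 29.6% and 30.6% in these conditions, and nothing is read from the counts, since they come from the contrast that chose the receptors. Cd244a had log2 fold changes of -2.52 ± 0.23 without stimulus, -2.55 ± 0.17 with IL-4 and -1.77 ± 0.14 with IL-4 and PGE2. Without stimulus Cd300lg stood at -1.77 ± 0.61, Sh2d1b1 at -1.48 ± 0.16 and Cd300e at -1.45 ± 0.17. With IL-4 Fyn stood at -2.16 ± 0.14 and Cd300ld3 at -1.96 ± 0.18, and Slamf6 at -1.78 ± 0.48. With IL-4 and PGE2 these 3 stood at -1.90 ± 0.14, -1.55 ± 0.18 and -1.72 ± 0.62. Ptpn6 was the gene wholly above with IL-4 and PGE2, at 0.52 ± 0.05.

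The neighbours of the receptors on chromosome 1 lay on both sides of 0 between the hairpins. There, 42 other annotated genes lie between Ly9 and Slamf8, of which 16 were tested in the hairpin experiment. Wholly lower in Etv1 shRNA cells were 6 without stimulus, 4 with IL-4 and 3 with IL-4 and PGE2, and wholly higher were 3, 4 and 7, against 29% to 30.1% of all genes wholly lower and 28.4% to 30.6% wholly higher. With IL-4, Slamf6 and Gm10521, beside Cd84, stood at -1.78 ± 0.48 and -1.06 ± 0.25. Pea15a, which encodes a small death-effector-domain protein, stood at -0.99 ± 0.07 and Igsf9, an immunoglobulin-family gene next to Slamf9, at -0.88 ± 0.19, while Igsf8 stood at 0.47 ± 0.08. On chromosome 11, 9 other genes lie between Cd300a and Cd300lf and 3 were tested, all of them CD300 genes. In each condition 2 of these lay wholly lower and 0 wholly higher, against the shares above. With IL-4, Cd300ld3 stood at -1.96 ± 0.18, Cd300e at -0.58 ± 0.17 and Cd300c2 at -0.14 ± 0.07. Nothing is read from these counts, which come from the contrast that chose the receptors. With PGE2 in wild type cells 5 of 19 chromosome 1 neighbours rose and 4 fell, against 29.9% and 29.5% of all genes, with Igsf8 at -1.19 ± 0.06 (edgeR adjusted p = 1.47e-13) and Cfap45 at 1.14 ± 0.25 (adjusted p = 0.00035).

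**Figure D5:**
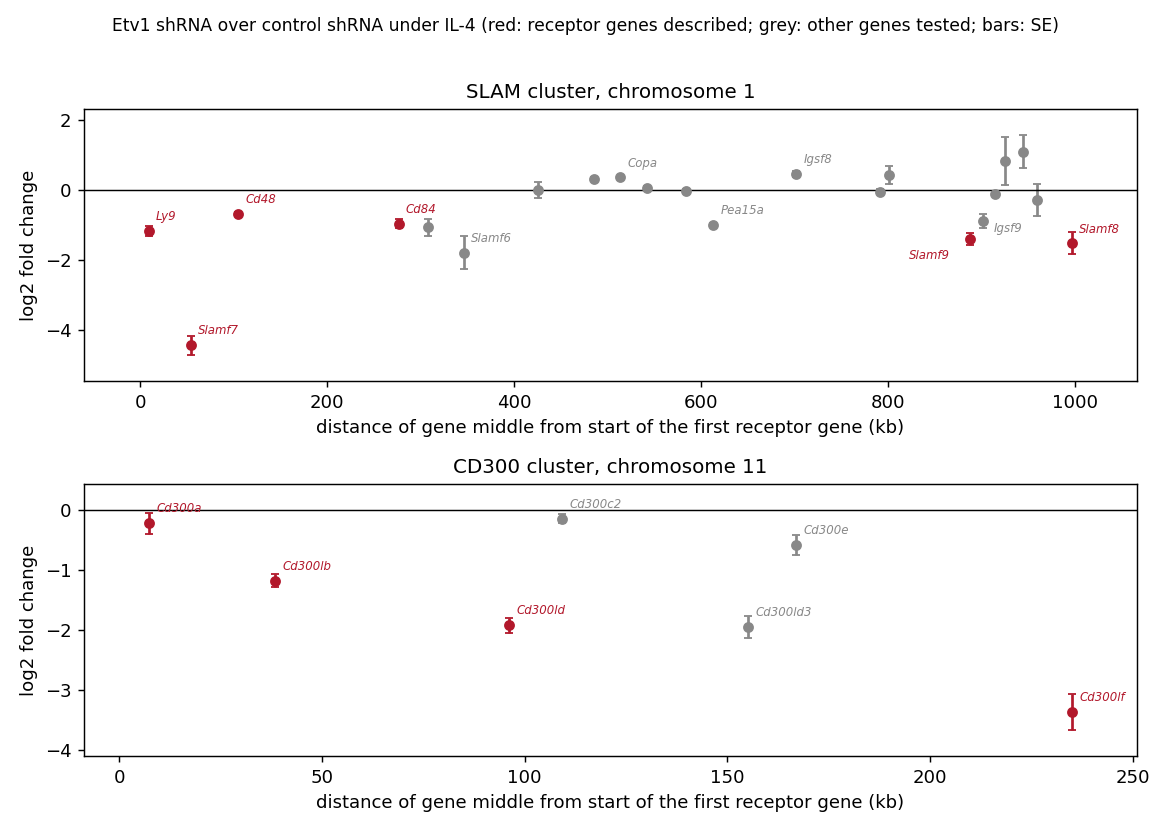
Log2 fold change in Etv1 shRNA against control shRNA cells with IL-4, for genes tested in the chromosome 1 and chromosome 11 clusters, against the distance in kb of the middle of each gene from the start of the first receptor gene. Red points are the 10 receptors and grey points the other genes, with bars of ± 1 SE. Vangl2, at 0.01, and Dcaf8, at -0.01, lie near 0 between Cd84 and Slamf9.

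The genes whose levels over the 10 groups most resembled those of Slamf7 and Cd300lf were found by the root mean square difference of log2 CPM (with 2 added), centred within each experiment, among 9640 genes. For Slamf7 they were Siglec1 (0.425), Mmp12 (0.459), Axl (0.468), Ifi27l2a (0.515) and Ass1 (0.551), against a root mean square of 1.49 for Slamf7 itself. For Cd300lf they were Ass1 (0.342), Ms4a7 (0.413), Ifi27l2a (0.446), Npy (0.504) and Ms4a14 (0.530), against 1.31 for Cd300lf itself. Siglec1, a sialic acid-binding receptor of macrophages, averaged 18.7 CPM in Etv1 shRNA cells with IL-4, against 152 CPM in control shRNA cells, and 106 CPM with IL-4 and PGE2 in wild type cells, against 197 CPM with IL-4 alone. Ms4a7, a tetraspan membrane gene of macrophages, averaged 92.5 CPM in Etv1 shRNA cells with IL-4 and PGE2, against 607.5 CPM in control shRNA cells. These likenesses are descriptions over 10 groups that share libraries with the contrast that chose the receptors.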

How the data were processed

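Messenger RNA of 30 libraries was measured by sequencing. The authors deposited 1 file a library, which holds unnormalized read counts by Ensembl gene ID. GRCm38, STAR, featureCounts, DESeq2 and deepTools are named, without versions, per the submitters' processing notes. The libraries were TruSeq stranded mRNA, per the labels, and the strand setting and annotation of the counting are not given in the sources used here. Symbols came from GENCODE M21, which matched 42548 of 43629 gene IDs (97.52%). Unmatched IDs held 0.153% of reads.

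Wild type (12 libraries, median 12216329 counts) and hairpin (18 libraries, median 10303938 counts) experiments were fitted apart with edgeR 4.0.16 in R 4.3.3 (TMM, filterByExpr, robust quasi-likelihood test, Benjamini-Hochberg adjustment over all genes tested, call at adjusted p under 0.05). Each SE was computed as |log2 fold change| divided by the square root of F. CPM used TMM-scaled library sizes. Intervals from counts cover counting error only. The closest replicates differed by more than sampling noise (chi-square 1.24 per degree of freedom), so each library counted as 1 replicate. Alternatives were DESeq2 1.42.0, other size factors, no low-count filter, the compared groups alone, the replicate number as a block, and each library left out.

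Within each hairpin, same-numbered libraries deviated together from their group means (Pearson r across genes of 0.213 to 0.490 for IL-4 and 0.146 to 0.433 for PGE2 with control shRNA, 0.187 to 0.325 and 0.106 to 0.293 with Etv1 shRNA). As every such r was over 0.1, the numbers were taken as pairing them, from the data alone, since the labels do not say what a number marks. Where the block changes a call, its value stands beside the result.

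Named genes were the 10 receptors, up to 4 of the 25 pathway genes a comparison by size of change among those called, Etv1, up to 4 cluster neighbours, and the 5 genes most like Slamf7 or Cd300lf (at least 5 CPM in the highest group of each experiment). The receptors and lists were chosen with earlier results of these data known.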

Additional observations from a re-analysis of the deposited data

Results flagged for a closer look

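The effect of PGE2 on Cd48 differed between the hairpins, which brought it here as a tested difference between groups. It was the 1 call among the 8 receptors given this test, where 11.6% of all genes tested were called. The test of Slamf8, among the 8, carries no weight. As 1 of 8 is near the share of all genes, nothing is read from the count about the receptors. For Cd48 the log2 fold change with PGE2 was -0.54 ± 0.07 in Etv1 shRNA cells and -1.17 ± 0.07 in control shRNA cells, a difference of 0.63 ± 0.09 (edgeR adjusted p = 0.000178). Each arm had 3 libraries, and PGE2 libraries lay below IL-4 libraries in 3 of 3 with either hairpin. Over 17 alternatives the difference stayed between 0.57 and 0.67, with adjusted p of 6.21e-07 to 0.00141. Gm37010, a gene model on the same strand, overlaps Cd48 and held 207 reads, against 41996 for Cd48, over the 30 libraries.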

How the results depend on the processing

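For the 10 receptors, 1473 of 1545 values under the alternatives were unchanged. Of the rest, 24 lost a call, 24 gained one and 24 changed direction, the last all values that were not called. Unchanged means the same direction and, where a test was given, the same side of the threshold. Values given without a test had no call to lose or gain. For those it means a shift smaller than the largest SD of log2 CPM among the compared groups. The counts of receptors called stayed within 1.5 times their value in 115 of 122 alternatives. With the replicate number as a block, 7 receptors passed for IL-4 with Etv1 shRNA, 2 for the difference of the PGE2 effect and 3 for that of the IL-4 effect, and this block changed no call in wild type cells. For the difference of the IL-4 effect 1 passed with DESeq2, 1 with the compared groups alone and 0 to 1 with a library left out. Leaving out a library turned the direction of these log2 values, none of them called. With IL-4 in Etv1 shRNA cells Slamf9 ran from -0.14 to 0.39 and Cd300lf from -0.34 to 0.0098. With PGE2 in Etv1 shRNA cells Cd300lf ran from -0.14 to 0.28 and Cd300ld from -0.13 to 0.10, and with valinomycin Cd84 ran from -0.0002 to 0.0538. For the difference of the PGE2 effect Slamf7 ran from -0.10 to 0.40 and Cd300a from -0.27 to 0.10, and for that of the IL-4 effect Slamf8 from -0.44 to 0.23, Slamf7 from -0.11 to 0.47 and Cd300a from -0.12 to 0.25. The change of Etv1 with valinomycin ran from -0.0952 to 0.0827 and also turned with no low-count filter (0.0154) and the compared groups alone (0.0013). The cause was not tested. The r of same-numbered libraries ran from -0.0741 to 0.198 over the wild type comparisons and from -0.0227 to 0.251 between hairpins. In no single comparison of these was every r over 0.1, so the numbers were not taken as pairing libraries there. The block, fitted over all libraries of an experiment, still joins same numbers across hairpins. In the 3 wild type comparisons with PGE2 or valinomycin every same-number r was above every other r, a hint from the data only. Depth limits Slamf8 most, at 2 reads in Etv1 shRNA cells with PGE2.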
